A study of Drosophila melanogaster with 3 samples.

Results

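Metafemale larvae of Drosophila melanogaster were compared with male larvae, which sets 3 X chromosomes against 1 beside a diploid set of autosomes. The comparison covers the genes whose pooled level reached 10 counts per 1000000 transcript counts (CPM) in both groups. That holds for 4690 of 14161 genes, of which 863 of 2238 were in the table of X-linked genes and 3827 of 11923 in the table of autosomal genes. The autosomal table also holds the Y-linked genes. Where a gene had several transcripts, the transcript with the highest mean over the groups stood for it.

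The study sequenced RNA from whole larvae of the third instar in 3 groups, which were females, males and metafemales. Males carry 1 X and a Y, and the labels name no other allele, transgene or treatment. All stocks were kept at 20 degrees, and each group had 3 biological repeats. The deposited tables hold 1 pooled value per group, so the values below have no replicate check, no standard deviation and no test between groups.

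In flies, the MSL complex binds the X chromosome of males and raises its transcription. The complex joins the MSL proteins to the RNAs roX1 and roX2, and the Sex-lethal protein keeps it from forming in females. Metafemales have the female form of this switch and carry an additional X, and they are known to survive poorly.

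The male libraries had inferred totals of 92.4, 91.5 and 31.6 M counts, and the metafemale libraries 112, 99.6 and 69.0 M, where M stands for 1000000. A pooled value has the counting error of 169 M counts in males and 269 M in metafemales. The level that 3 counts give is 0.0178 CPM in males, 0.0112 CPM in metafemales and 0.0133 CPM in females. Intervals are exact binomial intervals at 95% and cover counting error only, since without molecular identifiers reads are not independent molecules. A gene is called higher or lower in metafemales when the ratio of the pooled values reached 2-fold. Where 3 values follow a gene, they stand in the order males, females, metafemales. Values are shares of each column, so they do not show the amount of RNA per cell. X-linked genes supplied 14.8% of counts in males, 16.2% in females and 19.6% in metafemales.

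Near-identical or overlapping genes have uncertain single values, since reads can be split or shared between them. Among the genes named here this concerns the pairs Sgs7 with Sgs8 and ng1 with ng2, the Lsp1 genes, and gene pairs that hold equal values such as Sxl and CG14425. At the edge of the 10 CPM rule, the X-linked fs(1)K10 stood just inside at 10.04 CPM in males and 11.3 CPM in metafemales. The X-linked mRpL22 stood just outside at 9.98 and 11.8 CPM. In the autosomal table CG10462 was just inside at 10.01 and 13.2 CPM, and Cyp4ad1 just outside at 9.997 and 24.6 CPM.

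The median X-linked gene was higher in metafemales than in males, and the median autosomal gene was lower. The median ratio of metafemales to males was 1.23 over the 863 X-linked genes, with the middle 50% of genes between 0.929 and 1.74. Over the 3827 autosomal genes it was 0.813, with the middle 50% between 0.592 and 1.13. The most frequent ratios were 1.14 on the X and 0.818 on the autosomes. On the log2 scale the medians were 0.30 and -0.30, a difference of 0.60, or 1.51-fold. As a ratio of column shares, not of RNA per cell, the X-linked median stood below the 3 to 1 ratio of X chromosome copies.

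Among X-linked genes 602 (69.8%) had a ratio above 1, against 1261 autosomal genes (33.0%). At 2-fold, 145 X-linked genes were higher, which is 16.8% of those compared, and 34 were lower, which is 3.94%. Of the autosomal genes 313 were higher (8.18%) and 623 lower (16.3%). Among all 4690 genes 458 were higher (9.77%) and 657 lower (14.0%). A ratio of 3 or more was seen for 57 X-linked genes (6.60%) and 133 autosomal ones. Within 2-fold lay 684 X-linked and 2891 autosomal genes.

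The level of either table depends on how the columns are scaled, and their difference does not. The median of all 4690 genes was -0.20 on the log2 scale. Scaling that sets this median to 0 gave 214 X-linked genes higher and 19 lower, and 391 autosomal genes higher and 425 lower. Scaling on the median autosomal gene, a shift of 0.30, gave 241 and 16 X-linked genes and 450 and 340 autosomal ones. The X-linked minus autosomal difference lay between 0.39 and 0.76 over 15 alternative settings, above 0 in 15 of them. Some of these settings could not move it. A scaling factor cancels in the difference, and no gene of the testis lists was at 10 CPM in both columns, so it stayed at 0.60 there.

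**Figure D1:**
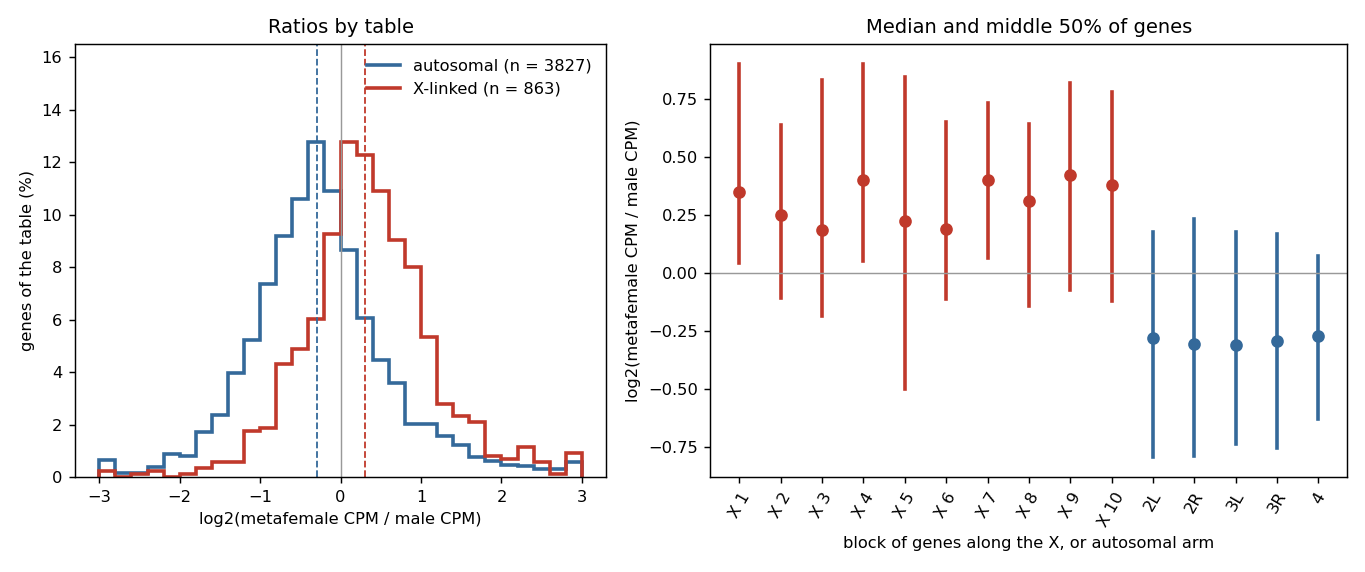
The left panel plots the percentage of genes in each table by log2 ratio of metafemale to male CPM, with dashed lines at the medians of 0.30 (X-linked, red) and -0.30 (autosomal, blue); values beyond the axis are drawn in the end bins. The right panel plots the median (point) and the middle 50% of genes (bar) for 10 consecutive blocks of X-linked genes and for each autosomal arm; as deposited, all 10 X blocks lie above 0 and all autosomal medians below it, and autosomal scaling takes 3 of the latter just above 0.

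The offset was spread along the whole X and was similar on every autosomal arm. Each of 10 consecutive blocks of 86 or 87 X-linked genes had a median above 0 on the log2 scale, from 0.19 in block 3 to 0.42 in block 9. The autosomal medians were -0.28 for 2L, -0.31 for 2R, -0.31 for 3L and -0.29 for 3R. The small chromosome 4, on which the protein Pof binds genes, had a median of -0.27 over 59 genes, with 3 higher and 7 lower. A scaling factor moves all of these medians by the same amount, and the shift of 0.30 takes those of 2L, 3R and chromosome 4 just above 0.

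The X-linked median was the higher one at every expression level. X-linked genes with a mean of 10 to 30 CPM had a log2 median of 0.22 (393 genes), those of 30 to 100 CPM 0.43 (348 genes), those of 100 to 300 CPM 0.40 (80 genes) and those above 300 CPM 0.26 (42 genes). The autosomal medians in these bins were -0.30, -0.34, -0.00 and -0.20. Transcript length moved both tables together. Length is that of the longest spliced transcript of the gene in the annotation, which need not be the transcript that stood for the gene. Genes with a longest transcript under 1000 bases had log2 medians of -0.21 on the X and -0.83 on the autosomes (455 genes). Those of 2000 to 4000 bases had 0.40 and -0.20. Across 4 length bins the X-linked minus autosomal difference was 0.61, 0.57, 0.60 and 0.63.

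Within gene groups that hold X-linked and autosomal members, the X-linked members stood above the autosomal ones in most cases. Of 7 lists with at least 3 genes of each class at 10 CPM in both columns, 6 had the higher median on the X. The lists were written with earlier results of these data known, and the citrate cycle list was added after values had been seen. Where a list holds 3 X-linked genes, its X-linked median is the value of 1 gene. Ribosomal protein genes had a log2 median of -0.48 over 14 X-linked genes and -1.07 over 67 autosomal ones. Among these X-linked genes, RpL7A had 623 CPM in males and 1161 in metafemales, and RpL36 had 1529 and 572 CPM. Oxidative phosphorylation genes had 0.54 over 12 X-linked and -0.16 over 52 autosomal genes. The X-linked ND-75, the largest subunit of complex I, had 46.7 CPM in males, 53.7 in females and 155 in metafemales, 3.31-fold higher.

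Proteasome genes had a log2 median of -0.23 over 4 X-linked genes and -0.999 over 28 autosomal genes. The X-linked genes are Rpt4, Rpt6 and Rpt3, ATPases of the regulatory particle, and Prosalpha4 of the core particle. Citrate cycle genes had 2.29 over 3 X-linked and 1.24 over 12 autosomal genes. The X-linked genes are kdn, which encodes citrate synthase, Idh3a and Fum1, and their median is the value of Idh3a. The remaining lists with this order were fat body proteins (3.56 over 3 and 0.92 over 14 genes) and DNA replication and cell cycle genes (0.03 over 3 and -0.85 over 8 genes). The X-linked fat body median is the value of Tsf1, which is among the highest X-linked genes given below. Glycolysis and sugar metabolism was the exception, at 0.89 over 4 X-linked genes and 1.54 over 18 autosomal ones.

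**Figure D2:**
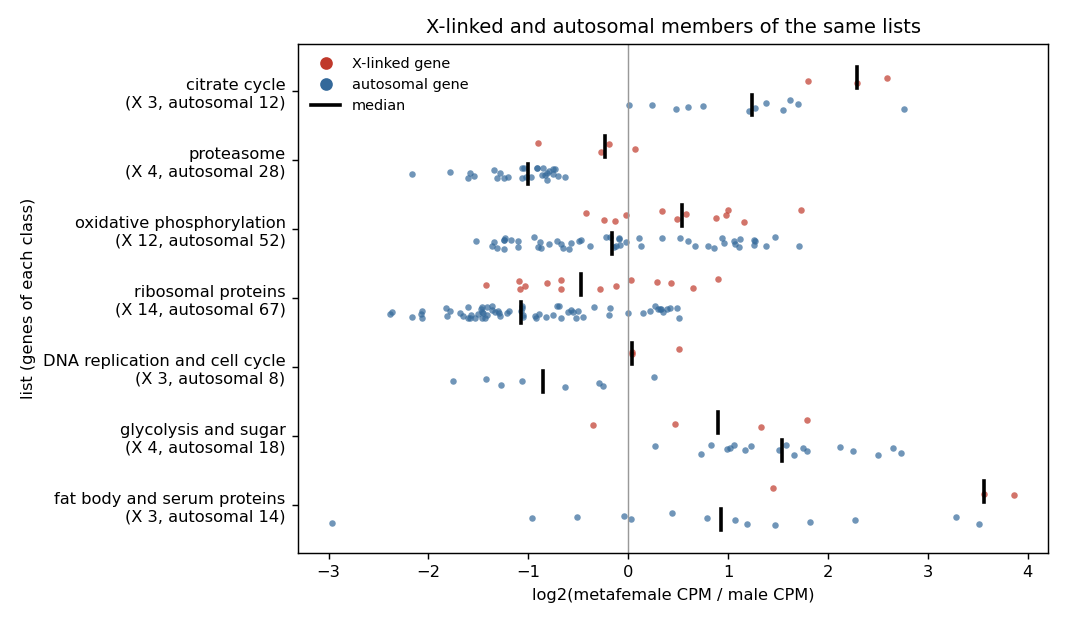
The plot shows the log2 ratio of metafemale to male CPM for each gene of 7 lists (points; red X-linked, blue autosomal) with the median of each class (black bars). The red median lies to the right of the blue one in 6 lists, and glycolysis and sugar is the exception at 0.89 and 1.54.

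The genes of the dosage compensation machinery itself differed most in its RNAs. roX1, an X-linked noncoding RNA of the MSL complex, had 388 CPM in males, 20.7 CPM in females and 17.7 CPM in metafemales, 21.9-fold lower in metafemales than in males (21.2 to 22.5). Its partner RNA roX2 had 50.5 CPM in males, 0.181 in females and 0.0339 in metafemales, a 1492-fold difference (794 to 3301) that rests on few counts in metafemales. Both RNAs were thus high in the male column and low in both female ones.

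Genes of lower level or of one column only were described on log2 of the value plus 1 CPM, for genes whose mean of the pair of columns reached 1 CPM. This understates the change of low genes. Of 11065 such genes 8.59% were 2-fold higher in metafemales and 29.5% 2-fold lower, with a median of -0.42. These shares are the background for the counts of gene lists below, unless another is given. Scaling on the median autosomal gene changed 950 higher and 3266 lower genes to 1368 and 2648, and median-of-ratios scaling to 1207 and 2851. Of 10 dosage compensation genes on this scale 5 were lower and 0 higher, with a median of -1.04, and with autosomal scaling 4 were lower.

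The lower genes were both roX RNAs, Pof, msl-2 and JIL-1. msl-2, the subunit whose translation Sex-lethal blocks, had 20.8 CPM in males, 7.62 in females and 6.0 in metafemales, 3.46-fold lower in metafemales (3.27 to 3.68). Pof, which encodes the protein that marks chromosome 4, had 74.5 CPM in males, 7.77 in females and 5.56 in metafemales, 13.4-fold lower (12.7 to 14.2). JIL-1, a histone H3 kinase enriched on the male X, had 61.3 CPM in males, 46.3 in females and 26.1 in metafemales, and it passed 2-fold as deposited but not with autosomal scaling. The other members were within 2-fold. They were the zinc finger protein gene Clamp (40.7 CPM in males and 21.6 in metafemales), msl-3 (8.58 and 4.66), the helicase gene mle (27.5 and 17.4), msl-1 (18.7 and 14.7) and the acetyltransferase gene mof (9.53 and 8.02).

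Most sex determination genes were within 2-fold. Sxl, the X-linked master gene of female development, had 27.3 CPM in males, 103 in females and 86.4 in metafemales, 3.17-fold higher in metafemales (3.07 to 3.27). fru had 7.45 CPM in males, 12.5 in females and 26.7 in metafemales. Of 16 kept genes of 18 found, 3 were higher (Sxl, fru and Yp3) and 2 lower (sc and tra2), with a median of -0.24, which turned to 0.03 with autosomal scaling. The splicing target tra (2.88 CPM in males and 3.42 in metafemales) and dsx (3.88 and 3.98) were within 2-fold.

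Y-linked genes served as a check of the labels. All 10 Y-linked genes of the list were at 0 in metafemales, where 0 counts allow up to 0.0112 CPM. In males they ran from 0.0725 CPM (CCY) to 2.78 CPM (ARY), and in females from 0 to 0.0631 CPM (kl-3).

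Older work on X dosage used a few enzyme and visible-marker genes, and these are listed here as classic X-linked genes. Of 17 kept genes of 19 found, 3 were higher, 0 lower and 14 within 2-fold, with a median of 0.44, against 14.7% higher and 17.0% lower among 1766 X-linked genes on the same scale. The higher genes were Lsp1alpha, the tryptophan dioxygenase gene v (5.42 CPM in males, 7.36 in females and 17.1 in metafemales) and the hexokinase gene Hex-A (36.6, 51.2 and 91.7 CPM). The transporter gene w had 15.8 CPM in males, 6.91 in females and 14.1 in metafemales. Its value in males was thus close to that in metafemales.

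Of the enzymes of the pentose phosphate pathway, Pgd had 56.7 CPM in males, 55.1 in females and 78.3 in metafemales, and Zw had 17.5, 16.3 and 13.7 CPM. The Notch receptor gene N had 73.0 CPM in males, 84.1 in females and 45.1 in metafemales, and Sgs4, a glue gene, had 1189, 1455 and 743 CPM. The gene for the large subunit of RNA polymerase II, Polr2A, had 59.6, 76.9 and 81.1 CPM. r, which encodes an enzyme complex of pyrimidine synthesis, and the homeobox gene ct were within 2-fold on this scale, at 0.94 and 0.98, and passed it with both other scalings, which made 5 of 17 higher. arm, sd, g, Rbf, dor and f lay between -0.03 and 0.61.

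Among X-linked genes at 10 CPM in both columns, CG2444 had the lowest ratio of metafemales to males. Its level was 771 CPM in males, 844 in females and 20.1 in metafemales, 38.3-fold lower (37.3 to 39.4). roX1, given above, followed. Next came Sclp (204 CPM in males, 197 in females and 33.8 in metafemales), the carboxypeptidase gene Nna1 (209, 186 and 40.6 CPM), the sulfiredoxin gene Srx (84.0, 103 and 17.6 CPM) and mud (51.2, 20.3 and 13.4 CPM). mud encodes a protein that orients the mitotic spindle. In 4 of these 6 genes the female value was near the male one, and in roX1 and mud it was nearer to the metafemale one.

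Highest on the X was Lsp1alpha, a storage hexamerin made by the fat body, at 185 CPM in males, 474 in females and 2700 in metafemales, 14.6-fold higher (14.4 to 14.7). CG14205 had 16.6, 66.2 and 210 CPM, a 12.6-fold difference. Tsf1, an iron-binding transferrin of the haemolymph, had 64.5, 246 and 763 CPM, 11.8-fold higher. vanin-like (12.9, 16.6 and 117 CPM), CG10918 (46.7, 117 and 411 CPM) and CG17896 (27.4, 49.1 and 240 CPM) followed, and in these 6 genes the female value lay between the other 2 columns. Of all 145 X-linked genes called higher, 139 (95.9%) had the female value between those of males and metafemales, against 330 of 684 (48.2%) within 2-fold, where the outer values lie closer together by choice. Of the 34 called lower it lay between in 23 and above both in 10.

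The X-linked genes of highest mean level changed to different degrees. Ag5r2, an antigen 5-related gene, had 2317 CPM in males, 1805 in females and 2723 in metafemales, a ratio of 1.18. Act5C, a cytoplasmic actin, had 1845, 2126 and 2001 CPM, a ratio of 1.08. RpS6, a ribosomal protein of the small subunit, had 1076, 1374 and 1311 CPM, a ratio of 1.22. up, which encodes troponin T of muscle, had 487, 715 and 2281 CPM, a ratio of 4.68. Act5C and RpS6 were thus highest in females, and up and Lsp1alpha highest in metafemales.

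Salivary glue genes made up 3 of the 6 lowest autosomal genes at 10 CPM in both columns. Sgs8 had 1846 CPM in males, 923 in females and 26.7 in metafemales, 69.3-fold lower in metafemales than in males (67.7 to 70.9). Sgs7 was 28.7-fold and Sgs5 15.1-fold lower. CG42460 (253, 131 and 12.1 CPM), the metalloproteinase gene sona (272, 179 and 14.3 CPM) and Pu (310, 85.2 and 18.1 CPM) were also among the 6 lowest. Pu encodes GTP cyclohydrolase, an enzyme of pteridine synthesis.

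At the other end of the autosomal table stood LManVI, a lysosomal alpha-mannosidase, with 11.2 CPM in males, 28.4 in females and 365 in metafemales, 32.6-fold higher (31.1 to 34.1). CG31343 had 34.99, 57.6 and 572 CPM, CG9757 had 31.4, 67.3 and 447 CPM, and Lsp1beta had 1505, 4342 and 17148 CPM. CG31233 (16.4, 47.8 and 186 CPM) and CG13492 (21.4, 39.9 and 236 CPM) completed the 6 highest. The female value lay between in 296 of the 313 autosomal genes called higher (94.6%). Among the 623 called lower it lay between in 475 (76.2%) and above both in 138. These shares describe 3 pooled columns, 2 of which define the call.

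**Figure D3:**
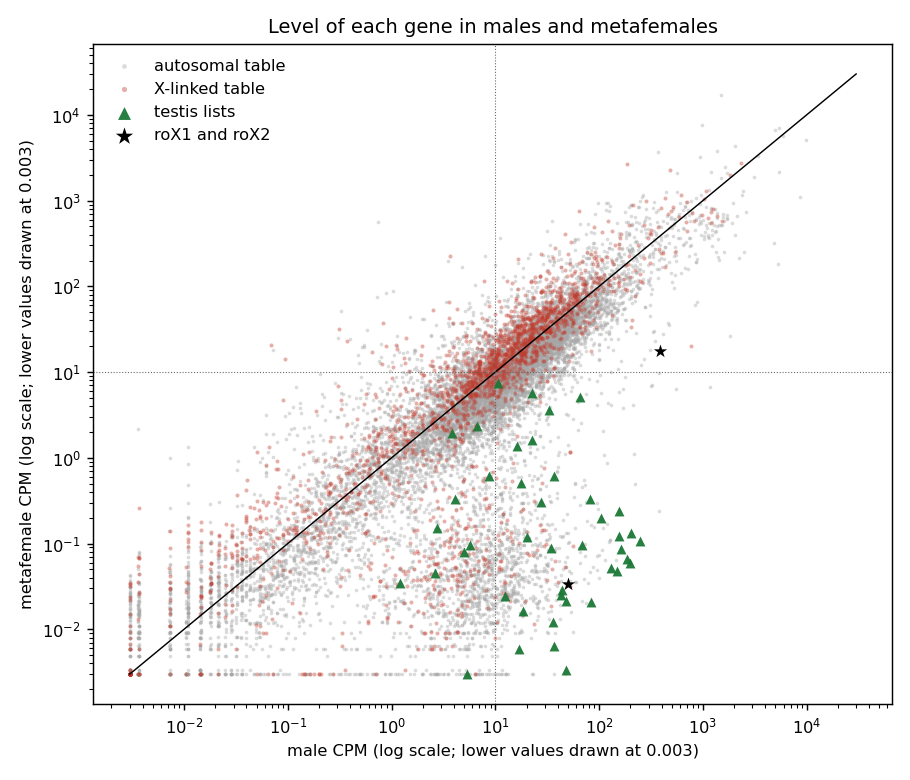
Each point is a gene, with its male CPM on the horizontal and its metafemale CPM on the vertical log axis; grey points are autosomal and red points X-linked, and the solid line marks equal values. Dotted lines mark 10 CPM, green triangles mark the testis lists, which lie under the line, and black stars mark roX1 (388 and 17.7 CPM) and roX2 (50.5 and 0.0339 CPM).

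Genes at 10 CPM in males alone were far more frequent on the autosomes. There were 1662 autosomal genes of this kind (13.9% of the table) and 131 X-linked ones (5.85%). At 10 CPM in metafemales alone were 359 autosomal genes (3.01%) and 164 X-linked ones (7.33%). These counts at a fixed level depend on how the columns are scaled, and rescaled counts are not given here. Over both tables, male-only genes had a median of 4.36 CPM in metafemales, and metafemale-only genes 6.53 CPM in males. Of all 1793 male-only genes 1316 passed 2-fold with 1 CPM added, and 642 were below 1 CPM in metafemales. In 600 of the 1793 (33.5%) the level was below 1 CPM in females as well. Of the 523 metafemale-only genes 310 passed 2-fold and 27 were below 1 CPM in males. The male-only genes summed to 41993 CPM in males and 7475 CPM in metafemales.

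Testis genes were among the most extreme of them. Male larvae of this stage carry testes with spermatocytes. Of 43 genes in the testis lists 33 were at 10 CPM in males alone, and 0 were at 10 CPM in both columns. In whole larvae, fewer cells of a type and less RNA per cell cannot be told apart. All 7 sperm leucyl aminopeptidase genes were lower, with a median of -7.24 on the scale of value plus 1. S-Lap1 had 249 CPM in males, 0.891 in females and 0.106 in metafemales, 2341-fold lower (1608 to 3449). loopin-1, of the same protein family, had 203, 0.604 and 0.133 CPM.

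Of 21 spermatid genes 21 were lower, with a median of -5.42, against 31.9% lower and 7.43% higher among 9299 autosomal genes on this scale. betaTub85D, the testis beta-tubulin, had 155 CPM in males, 0.621 in females and 0.237 in metafemales. Mst77F, a histone-like protein of sperm chromatin, had 105, 0.603 and 0.197 CPM, and Mst87F had 81.6, 2.30 and 0.329 CPM. Spermatocyte regulators had 12 of 14 kept genes of 15 found lower, with a median of -2.21, and 11 lower with autosomal scaling. bol, a translational regulator of meiotic entry, had 65.5, 3.96 and 5.19 CPM, and the RNA-binding protein gene orb had 36.4, 0.906 and 0.609 CPM. For genes that both gonads use, 5 of 9 kept germline genes of 15 found were lower (3 with autosomal scaling) and 0 higher, with bgcn at 7.14, 0.372 and 0.264 CPM.

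Paralogs of common subunits gave the same picture. All 21 kept paralogs of oxidative phosphorylation subunits and all 15 kept paralogs of proteasome subunits were lower in metafemales. COX4L had 27.5 CPM in males, 0.187 in females and 0.170 in metafemales, and the proteasome paralog Prosalpha6T had 12.1, 0.0432 and 0.0373 CPM. These paralog lists were separated from the common subunits after values had been seen.

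Among all genes at 10 CPM in males alone, those of the autosomal table with the largest drop on the scale of value plus 1 were CG4836 (376 CPM in males, 1.298 in females and 0.241 in metafemales, 1564-fold), S-Lap1, S-Lap7 (197, 0.517 and 0.0596 CPM), loopin-1 and S-Lap4 (185, 0.519 and 0.0656 CPM). On the X they were CG8565 (56.1, 0.227 and 0.0927 CPM), CR32690 (52.7, 0.179 and 0.0320 CPM), roX2, CG1394 (46.5, 0.207 and 0.0537 CPM) and CG15306 (40.1, 0.166 and 0.0358 CPM). Each of these genes was below 2 CPM in females too.

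The genes at 10 CPM in metafemales alone were led by CG11350, at 0.740 CPM in males, 1.53 in females and 563 in metafemales, 761-fold higher (637 to 912). CG10953 (0.890, 0.946 and 83.3 CPM), Tep1 (0.731, 4.56 and 75.9 CPM), CG32198 (3.48, 9.44 and 197 CPM) and CG32241 (1.03, 1.09 and 88.5 CPM) came next. Tep1 encodes a thioester-containing protein of the immune system. X-linked genes of this kind were CG32603 (3.62, 5.69 and 226 CPM), CG14419 (0.309, 1.44 and 31.8 CPM), CG32564 (0.829, 1.497 and 37.5 CPM), CG1304 (0.0688, 10.7 and 20.4 CPM) and CG6788 (0.375, 0.595 and 22.9 CPM). CG1304 alone among these 10 was at 10 CPM in females as well.

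**Figure D4:**
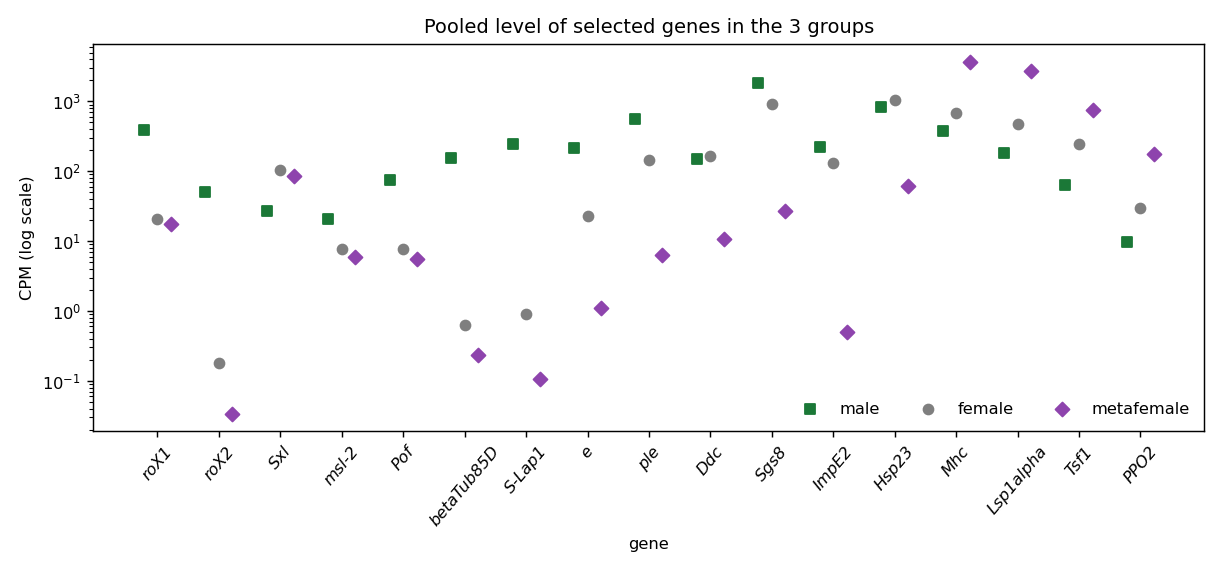
The pooled level in CPM is plotted on a log axis for selected genes in males (green squares), females (grey circles) and metafemales (purple diamonds). From roX1 to S-Lap1, Sxl apart, males are highest and the female groups low; from e to Hsp23 metafemales are lowest, and from Mhc to PPO2 metafemales are highest.

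Salivary glue genes and genes of the ecdysone response were lower in metafemales at shares above the background of 29.5%. Of 11 kept glue and 71E genes of 12 found, which the salivary gland expresses, 7 were lower and 3 higher, with a median of -2.68. Sgs1 had 324 CPM in males, 178 in females and 7.15 in metafemales. The higher members were ng1 (2.52, 9.82 and 53.3 CPM), ng2 (3.58, 11.8 and 66.1 CPM) and ng3 (211, 278 and 878 CPM), X-linked salivary genes of an earlier stage. Sgs4, the X-linked glue gene given above, was within 2-fold.

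The list of genes that respond to the moulting hormone ecdysone had 14 of 25 kept genes of 26 found lower, 3 higher and 8 within 2-fold, with a median of -1.37. ImpE2, which ecdysone induces in imaginal discs, had 221 CPM in males, 130 in females and 0.497 in metafemales, 444-fold lower (374 to 529). The nuclear receptor genes Hr4 (named CG42527 in the tables; 52.1, 23.6 and 1.15 CPM), Eip78C (41.5, 18.2 and 1.18 CPM) and Hr3 (17.6, 7.05 and 0.593 CPM) were lower. The higher genes were Ldh, Hr38 and ftz-f1. The receptor genes EcR (78.3, 107 and 60.6 CPM) and usp (26.1, 30.4 and 33.3 CPM) were within 2-fold.

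Of 12 kept genes of cuticle tanning and pigment 5 were lower and 2 higher, with a median of -0.47 against -0.42 for all genes, so the list as a whole was near the background. The 5 lower genes encode enzymes that serve the making of tanning precursors. This list was added after values had been seen. ple, tyrosine hydroxylase, had 556 CPM in males, 143 in females and 6.37 in metafemales, 87.4-fold lower (83.3 to 91.7). e, which joins beta-alanine to dopamine, had 218, 23 and 1.10 CPM, 198-fold lower (177 to 223). Ddc, dopa decarboxylase, had 151, 163 and 10.8 CPM, and b, which makes beta-alanine, had 56.3, 39.5 and 2.85 CPM. Pu, whose product serves the cofactor of tyrosine hydroxylase, is the fifth. t and yellow-f2 were higher, at 2.33 and 7.94 CPM and at 0.581 and 7.45 CPM in males and metafemales. Structural cuticle proteins went both ways, with 12 of 48 kept genes higher and 14 lower, against 8.59% and 29.5% of all genes. The count of lower genes is thus near the background. Examples are Cpr49Ac (2235 and 212 CPM in males and metafemales) and Cpr47Eg (0.543 and 20.7 CPM).

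Small heat shock genes, which respond to ecdysone as well as to heat, were prominent in the heat shock list. There 8 of 18 kept genes were lower and 0 higher (1 higher with each of the other scalings). Among all genes 29.5% were lower and 8.59% higher. Hsp22 and Hsp67Bb hold equal values and cannot be separated. Hsp26 had 171 CPM in males, 145 in females and 6.32 in metafemales. Hsp23 had 842, 1036 and 61.0 CPM, and Hsp27 had 465, 370 and 37.8 CPM. The chaperone genes Hsp83 (757 and 586 CPM in males and metafemales) and Hsc70-4 (1507 and 1826 CPM) were within 2-fold.

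Imaginal disc regulators had 10 of 30 genes lower and 0 higher, with a median of -0.79, and 8 lower with autosomal scaling. The lowest were dac (23.8 CPM in males, 20.9 in females and 4.86 in metafemales), eya (10.6, 7.36 and 2.37 CPM), Scr (11.2, 7.94 and 2.61 CPM) and Dll (9.20, 9.66 and 2.36 CPM). DNA replication and cell cycle genes had 10 of 32 lower and 0 higher, with a median of -0.56. These 10 included the mitotic genes aurA (14.4, 5.72 and 2.04 CPM), CycB (41.0, 24.0 and 9.03 CPM) and Cdk1 (22.3, 21.2 and 4.74 CPM). A share of 29.5% of all genes was lower on this scale, so these 2 counts are near the background.

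Most muscle genes and most genes of glycolysis and the citrate cycle were higher in metafemales, while oxidative phosphorylation genes, given below, split. Of 25 kept muscle genes of 26 found 19 were higher and 0 lower, with a median of 1.47, against 8.59% of all genes. Mhc, the myosin heavy chain of muscle, had 371 CPM in males, 676 in females and 3708 in metafemales, 10.01-fold higher (9.93 to 10.1). Act57B, a muscle actin, had 989, 1408 and 7532 CPM, and Obsc, a giant sarcomere protein, had 18.3, 39.3 and 162 CPM. Mlp60A (229, 90.0 and 143 CPM) and Zasp66 (345, 391 and 270 CPM) were lower in metafemales than in males, within 2-fold.

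Glycolysis and sugar metabolism had 18 of 24 genes higher and 0 lower, with a median of 1.40. Gpo1, the mitochondrial glycerol-3-phosphate dehydrogenase, had 7.46 CPM in males, 17.4 in females and 79.7 in metafemales, 10.7-fold higher (10.1 to 11.3). Glyp, glycogen phosphorylase, had 117, 212 and 777 CPM, and Ldh, lactate dehydrogenase, had 29.1, 65.5 and 182 CPM. The citrate cycle list, added after values had been seen, had 10 of 15 genes higher and 0 lower. Men, malic enzyme, had 78.3, 124 and 531 CPM, and kdn had 54.1, 64.3 and 325 CPM.

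Fat body and serum protein genes had 10 of 18 higher and 1 lower, with a median of 1.13. FASN1, fatty acid synthase, had 96.9 CPM in males, 213 in females and 944 in metafemales, 9.74-fold higher (9.59 to 9.90). The lower member was Fbp1, the receptor for storage proteins, at 8636, 6045 and 1108 CPM. The storage protein genes Lsp2 (9876 and 5064 CPM in males and metafemales) and Lsp1gamma (5876 and 5725 CPM) were within 2-fold, unlike Lsp1alpha and Lsp1beta.

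Detoxification genes had 18 of 37 kept genes higher and 1 lower, with a median of 0.88. Over the 17 of them at 10 CPM in both columns the median log2 ratio was -0.10, with 5 higher and 1 lower. Cyp28a5 had 3.59 CPM in males, 9.62 in females and 34.0 in metafemales, and Cyp6a23 had 37.0, 83.9 and 197 CPM, both genes of cytochromes P450. The lower gene was GstS1 (132, 75.2 and 58.5 CPM), which was within 2-fold with either of the other scalings. Digestive enzymes had 14 of 39 kept genes higher and 2 lower, with a median of 0.57, against 8.59% and 29.5% of all genes. The maltase gene Mal-A3 had 1.17, 4.67 and 17.0 CPM and the trypsin gene betaTry 129, 207 and 877 CPM, while the lysozyme gene LysX had 31.1, 40.5 and 2.73 CPM.

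Of 25 neuronal genes 3 were higher (para, Gad1 and eag) and 0 lower, with a median of 0.21. Among all genes 8.59% were higher and 29.5% lower, so the count of higher neuronal genes is near the background. elav, a marker of neurons, had 16.8 CPM in males, 19.7 in females and 17.2 in metafemales. Immune genes had 4 of 25 kept genes of 35 found higher and 6 lower, with a median of -0.30. The count of lower immune genes is not above the 29.5% of all genes, whose median was -0.42. TotC, a stress-induced Turandot gene, had 0.583, 10.7 and 30.6 CPM, and Drsl5, a drosomycin-like gene, had 25.4, 13.3 and 0.197 CPM.

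**Figure D5:**
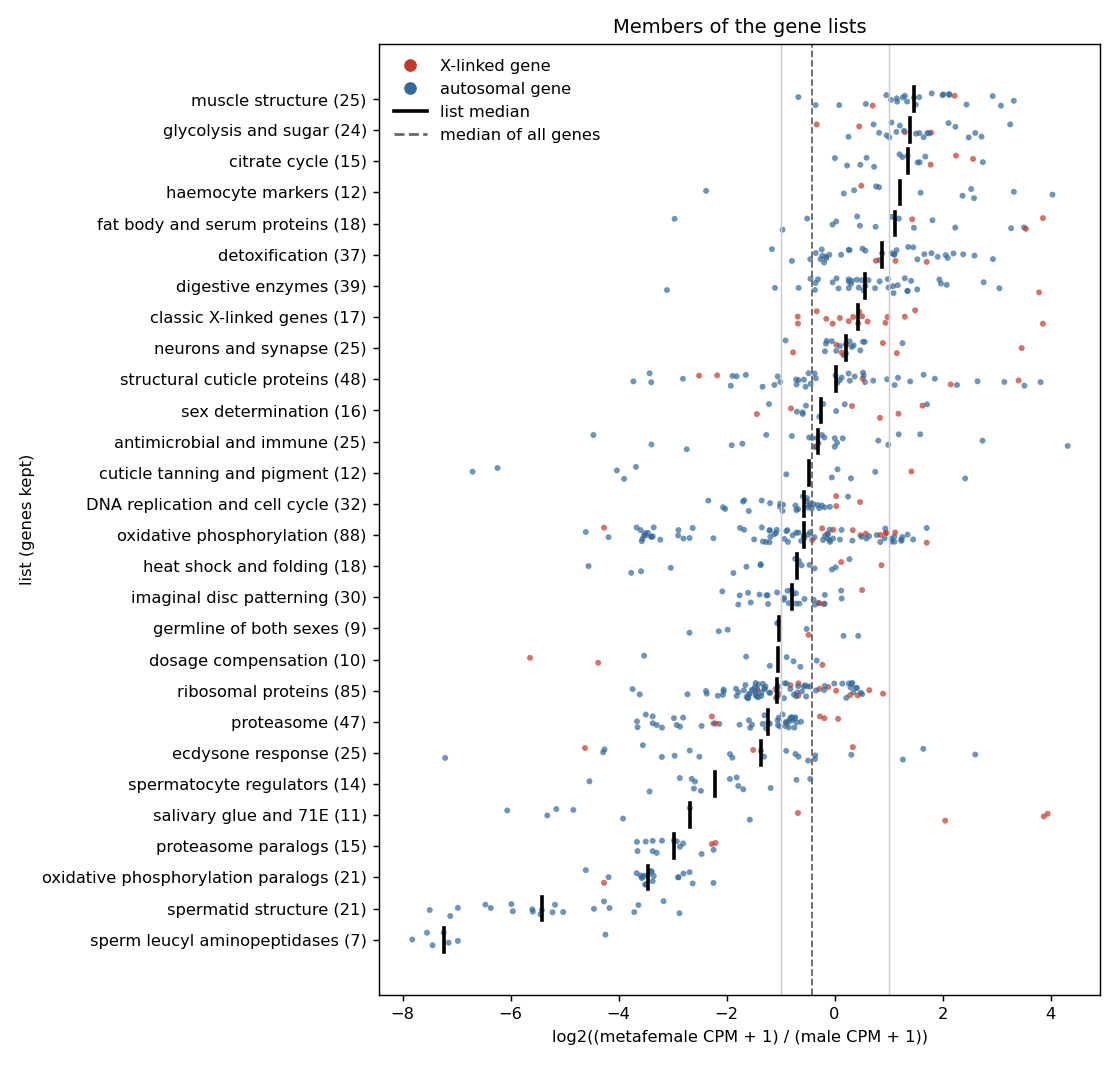
Each point is a gene of the list named on the left, with the number of genes kept, by log2 of the ratio of metafemale to male CPM after 1 CPM was added; red points are X-linked and blue ones autosomal. Black bars mark list medians, the dashed line the median of all genes (-0.42) and the grey lines 2-fold; medians run from 1.47 for muscle structure to -7.24 for sperm leucyl aminopeptidases.

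Ribosomal protein genes were lower in metafemales at a share above the background of 29.5%, and within this list the log2 ratio moved with transcript length. Of 85 kept ribosomal protein genes of 86 found 46 were lower and 0 higher, with a median of -1.06. Rescaled by median-of-ratios 37 were lower and 1 higher, and with autosomal scaling 34 and 1. RpL38 had 1328 CPM in males, 609 in females and 254 in metafemales. Ribosomal protein genes with a longest transcript of 500 to 750 bases had a log2 ratio of -1.42 in the median (29 genes, 23 lower), and those of 750 bases or more -0.64 (52 genes, 16 lower). All autosomal genes with a longest transcript under 1000 bases had a median of -0.83, and the part of length in the ribosomal result was not tested.

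The proteasome list had 29 of 47 kept genes of 49 found lower and 0 higher, with 15 paralogs among the 29. With median-of-ratios scaling 25 were lower and with autosomal scaling 22. Of the 32 genes that are not paralogs 14 (43.8%) were lower. With autosomal scaling 7 of them (21.9%) were lower, against 23.9% of all genes, so that their share is then near the background. Pomp, the assembly factor of the core particle, had 182 CPM in males, 127 in females and 40.8 in metafemales, and Prosbeta4 had 147, 134 and 42.8 CPM. Oxidative phosphorylation split, with 12 of 88 kept genes higher and 35 lower (18 and 32 with median-of-ratios scaling, 19 and 27 with autosomal scaling), 21 of the 35 being paralogs. The alpha subunit of ATP synthase, blw, had 201, 232 and 658 CPM, and the small complex III subunit UQCR-11 had 74.6, 46.2 and 26.0 CPM.

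The columns thus differed in testis genes, in glue and ecdysone response genes and in muscle and glycolysis genes as well as in the X. The part of these differences in the medians of the X-linked and the autosomal table was not tested. With the testis lists left out the medians were 0.30 and -0.30, since none of their genes was at 10 CPM in both columns. The difference of 0.60 was 0.62 without the 50 genes of highest mean level.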

How the data were processed

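Total RNA of whole larvae was extracted with TRIzol and sequenced after TruSeq library preparation, per the labels. Reads were aligned with TopHat to dm3 and counted with HTSeq, per the submitters' processing notes. For tool versions, annotation and strand the sources used here state nothing. The authors deposited fractions of each group's transcript counts, 1 pooled column per group, in tables of 3698 X-linked and 19040 autosomal transcripts. Fractions were multiplied by 1000000 (CPM). In 100% of values below 0.05 CPM, steps of 3 libraries explained the value within a relative tolerance of 1e-05. Library totals were inferred from these steps.

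With 1 pooled column per group no p-value was computed. Members and gene lists were chosen with earlier results of these data known, and 7 of 30 lists were added after values had been seen. Named genes were the 6 highest and 6 lowest ratios per table among genes at 10 CPM in both columns and the 5 largest changes in each direction among genes at 10 CPM in 1 column. All dosage compensation and classic X-linked genes, the 5 X-linked genes of highest mean and leading members of each other list were named too. Some further list members were named after their values were seen. Names and arms came from the Release 6 annotation, with 21508 transcripts matched by accession, 1115 by name and 115 unmatched. It differs in build from the files, so no coordinates are given. Alternatives covered filters, scaling, the transcript rule, the added constant and the fold threshold. Python 3.11.15, pandas 2.3.3, numpy 2.4.6, scipy 1.17.1 and matplotlib 3.10.9 were used. Variation between larvae and between libraries was not tested, since each group has 1 pooled column.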

Additional observations from a re-analysis of the deposited data

How the results depend on the processing

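As deposited, the log2 medians were 0.30 (X-linked) and -0.30 (autosomal), and 145 X-linked and 313 autosomal genes were higher and 34 and 623 lower. The X-linked median stayed above the autosomal one in all 15 alternatives that give it. Those that only rescale the columns or leave out the testis lists could not change this order. With 1 CPM in both columns the autosomal median was -0.40, and 262 and 681 genes were higher and 103 and 1846 lower. With 50 CPM it was -0.11, the difference 0.39, and the counts 36 and 108 higher and 9 and 147 lower. Without a filter the medians were 0.21 and -0.55, the difference 0.76, and the counts 433 and 1197 higher and 427 and 4091 lower. Median-of-ratios scaling gave medians of 0.50 and -0.10 and 19 X-linked genes lower. Autosomal scaling gave 0.60 and 0, 241 X-linked genes higher, 16 lower and 340 autosomal genes lower. Without the 50 genes of highest mean the medians were 0.39 and -0.23. Every transcript gave an autosomal median of -0.27 and 317 and 746 higher and 81 and 1191 lower, and single-transcript genes 71 and 167 higher and 17 and 340 lower. A threshold of 1.5-fold gave 305 and 538 higher and 89 and 1279 lower. The filter on a mean of 10 CPM with 1 CPM added, chosen after seeing the data, gave -0.40, a difference of 0.71, and 74 and 1236 genes lower. Among the 23 lists that were not added after values had been seen, those with most members lower numbered 8, and 5 with autosomal scaling. The Y-linked list, with 3 kept genes, is not in these counts. The smaller or larger gene sets set part of these counts, and the cause of the moved medians was not tested. Sums over transcripts kept the medians close but gave 157 and 354 genes higher and 40 and 762 lower. With 0.1 or 1 CPM added, class by arm or each annotated gene counted once (also chosen after seeing the data), every value stayed close to that reported. Leaving out the testis lists could change no value, since none of their genes passed the filter. No paired analysis was possible because each group has 1 pooled column, and no replicate could be left out. Depth limits metafemale values under 0.0112 CPM and male values under 0.0178 CPM.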

Other observations

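A few X-linked genes were low in males and present in both groups with more than 1 X. They were picked after values had been seen, by a male value under an eighth of both other columns. Those named here were above 10 CPM in metafemales. Lower genes that met the rule, such as CG12723 (0.0396 CPM in males, 0.656 in females and 0.424 in metafemales), are left out. Only X-linked genes were picked, and how often autosomal genes met the rule is not given. eag, which encodes a potassium channel of neurons and muscle, had 0.642 CPM in males, 28.7 in females and 17.1 in metafemales, 26.7-fold higher in metafemales than in males (22.1 to 32.7). CG9981 had 1.37, 37.5 and 25.2 CPM, and CG9360 had 0.803, 21.0 and 12.3 CPM. Ser6, a serine protease gene, had 0.0939 CPM in males, 11.3 in females and 14.1 in metafemales, and CG1304 had 0.0688, 10.7 and 20.4 CPM. Ser6 and CG1304 are neighbours on the X, at ranks 2087 and 2088 of 2186 genes in the annotation's order. Pgcl had 1.13, 9.62 and 18.6 CPM.

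Lysosomal alpha-mannosidase genes, which lie together on 2L, did not move alike. LManVI (11.2 CPM in males, 28.4 in females and 365 in metafemales), LManV (7.97, 17.5 and 226 CPM) and LManIII (1.01, 1.66 and 13.2 CPM) were higher in metafemales. LManI (31.5, 24.0 and 30.7 CPM) and LManII (147, 147 and 208 CPM) were within 2-fold. Of 12 haemocyte genes 6 were higher and 1 lower, against 8.59% and 29.5% of all genes. Both this list and that of the mannosidases were added after values had been seen. PPO2, a prophenoloxidase of crystal cells, had 9.85, 29.8 and 177 CPM, and Hml, a gene of plasmatocytes, had 32.7, 90.9 and 201 CPM. NimC2 was the lower gene, at 98.8, 78.0 and 18.2 CPM. Further genes, picked after values had been seen, were below 1 CPM in metafemales alone. They were the C/EBP gene slbo (39.1 CPM in males, 20.2 in females and 0.697 in metafemales), Achl (120, 50.3 and 0.867 CPM), CG34193 (43.3, 21.5 and 0.0424 CPM) and CG7906 (84.4, 11.8 and 0.164 CPM).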
